A study of Danio rerio with 10 samples.

Results

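The 16-cell zebrafish embryo (Danio rerio) was set against the stages on either side of it, the 4-cell and the 64-cell embryo. Of 32574 genes in the table, 9139 reached 5 RPKM in at least 1 of these 3 libraries and are called measured. RPKM divides the reads of a gene by its length and by the depth of its library, so levels can be compared between genes. A gene stood apart when its log2(RPKM + 1) in the 16-cell library was at least 1 above, or at least 1 below, that in both neighbouring libraries. This held for 1373 genes, of which 1080 stood above both (11.8% of the measured genes) and 293 below both (3.21%). The study sequenced total RNA from both gametes, from embryos of 1, 4, 16, 64, 128, 256 and 1000 cells, and from the sphere stage. Each stage had 1 library, labelled as its first replicate, so no difference has a replicate check and no test was possible. The labels describe all 10 libraries as cells of Danio embryos and state no strain, genotype, treatment, clutch, number of pooled embryos or minutes after fertilisation. Libraries were made with the TruSeq RNA v2 kit and read as single reads of 50 bp.

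A cleavage-stage fish embryo divides quickly and lives on mRNA that the mother laid down in the egg, since its own genome is almost silent until the blastula. The standard protocol of this library kit selects RNA by its poly(A) tail, and egg and early embryo cytoplasm is known to lengthen and shorten such tails. In a bulk sample, fewer cells of a type and less RNA per cell cannot be told apart.

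The 3 libraries carried the marks of early embryos. Of 20 maternal axis and activation genes, 13 were at 5 RPKM or more at 4 cells, 15 at 16 cells and 15 at 64 cells. Of 46 genes known for early zygotic transcription, 4, 3 and 4 reached that level in the same order, against 30 in the sphere library. Markers of muscle summed to 1.23, 2.68 and 1.80 RPKM over 12 genes, and those of liver and yolk to 3.16, 1.75 and 1.11 RPKM over 19 genes. The 11 blood markers summed to 7.72, 3.42 and 5.53 RPKM and the 13 pancreas markers to 1.35, 2.24 and 0.741 RPKM. Steroidogenic genes stood higher, with 192, 141 and 88.1 RPKM over 11 follicle markers and 43.8, 32.6 and 50.8 RPKM over 16 testis markers, mostly from CYP11A1 and CYP17A1. Of the follicle markers, hsd3b2, a steroidogenic enzyme, itself stood above both neighbours, at 0.827, 16.1 and 3.41 RPKM, also after the median-ratio scaling described later, and was at 1.00 RPKM in the oocyte and 31.3 at sphere. Its part in the other results was not tested. The values had been scaled to 113972795 reads in the 4-cell, 71597079 in the 16-cell and 72125930 in the 64-cell library, as recovered from the values themselves, and 91.3% to 93.8% of those reads lay in genes. Genes at 1 RPKM or more numbered 10291, 12442 and 11832.

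The 16-cell library differed more from the 4-cell than from the 64-cell library. Against the 4-cell library, 3764 genes were higher (41.2%) and 800 lower (8.75%) by at least 1 on the log2(RPKM + 1) scale, with a median difference of +0.70. Against the 64-cell library, 1310 were higher (14.3%) and 415 lower (4.54%), with a median of +0.18. The neighbours, set against each other without the 16-cell library, gave 2628 genes higher at 64 cells (28.8%) and 332 lower (3.63%). Of the genes higher at 16 cells than at 4 cells, 2684 were within 1 of the 64-cell library on that scale. The 1080 that stood above both were thus the smaller portion.

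The split between higher and lower depended on the scaling. Each library was divided by its median ratio to the geometric mean of the 3, over genes above 0 in all 3. This median-ratio scaling set no minimum of 5 RPKM, so it took the typical gene of that set as level, not the typical measured gene. Among measured genes it moved the median difference by -0.95 against the 4-cell and by -0.23 against the 64-cell library, to -0.24 and -0.06. After this scaling 442 genes stood above both and 735 below both. The share of higher genes among those apart thus went from 78.7% to 37.6%. Over the 9139 genes measured as deposited, 4.84% stood above both after scaling and 7.92% below both. All 293 genes below both (100%) and 442 of the 1080 above both (40.9%) were still apart on the same side. This scaling lowers the 16-cell library against both neighbours, with a divisor of 1.35 against 0.659 (4-cell) and 1.14 (64-cell). Genes below both therefore stayed apart nearly by construction, so their 100% does not show a firmer result than the 40.9%. Of the genes that the naming rule picked, 56 of the 113 above both and all 37 below both stayed past the threshold, the latter for the same reason. All of them kept their direction, which a median shift smaller than the threshold could hardly alter.

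The same rule was applied with the 4-, 64-, 128- and 256-cell libraries each in the middle. With the 4-cell library between the 1-cell and the 16-cell, 49 of 9076 genes stood above both (0.54%) and 49 below both (0.54%). The 64-cell library had 2 above (0.0216%) and 8 below (0.0865%) of 9252, the 128-cell library 3 above (0.0338%) and 5 below (0.0563%) of 8884, and the 256-cell library 2 above (0.0218%) and 3 below (0.0328%) of 9156. The 16-cell library thus had over 1000 genes apart where the later libraries had 10 or fewer, as deposited and after median-ratio scaling. The stages are unevenly spaced. Each of these later libraries had a neighbour nearer in cell number than those of the 16-cell library, so the counts are not on equal terms. The 4-cell library, between 1 and 16 cells, is the one spaced like the 16-cell library on both sides.

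**Figure D1:**
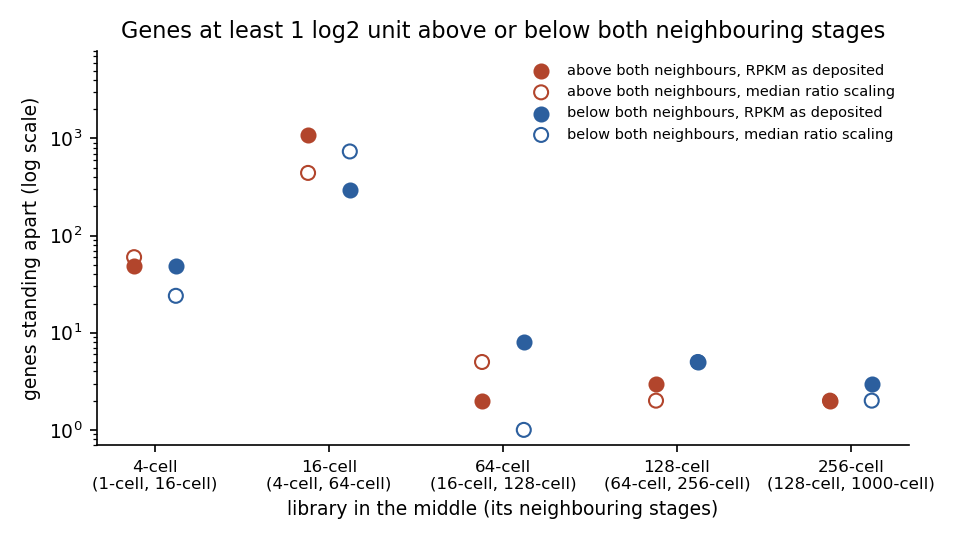
Number of genes at least 1 above (red) or below (blue) both neighbouring stages on the log2(RPKM + 1) scale, on a log axis, for each library placed in the middle of its neighbours. Filled points are RPKM as deposited and open points median-ratio scaled values. The 16-cell library has 1080 above and 293 below as deposited and 442 and 735 after scaling, while the 64-, 128- and 256-cell libraries have 8 or fewer of either kind.

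**Figure D2:**
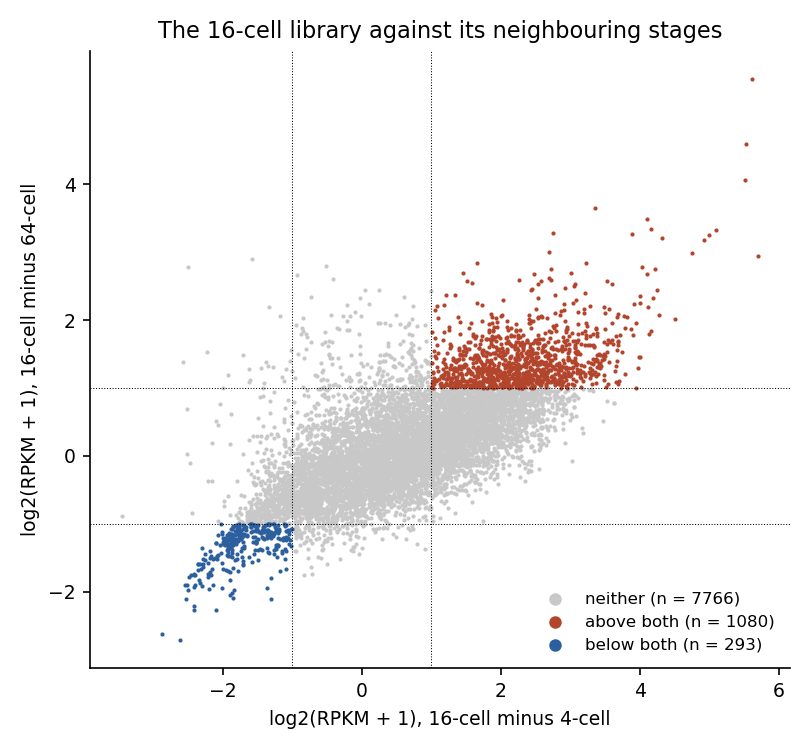
Difference of the 16-cell library from the 4-cell (horizontal) and the 64-cell library (vertical), both in log2(RPKM + 1), with 1 point per measured gene. Red points are the 1080 genes above both, blue points the 293 below both and grey points the other 7766. Dotted lines mark a difference of 1. Both axes share the 16-cell value, so the slope of the cloud is partly built in.

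Among named genes above both, fbxo5 had the largest difference. fbxo5, also called Emi1, which blocks the ubiquitin ligase that destroys cyclins, was at 28.3 RPKM in sperm, 2.26 in the oocyte, 1.31 at 1 cell, 2.1 at 4 cells, 142 at 16 cells, 4.94 at 64 cells, 6.66 at 128 cells, 17.0 at 256 cells, 20.8 at 1000 cells and 85.0 at sphere. Among egg and embryo libraries it was highest at 16 cells and next highest at sphere, and it was lowest from the oocyte to 4 cells. Its 16-cell level was 68.0 times the 4-cell level (95% interval 61.6 to 75.2) and 28.8 times the 64-cell level (26.6 to 31.3). Intervals on ratios were computed by the exact Clopper-Pearson method from reads worked back from the RPKM. They cover counting error only, since reads without molecular identifiers are not independent molecules.

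MOS, the kinase that holds the vertebrate egg in meiotic arrest, was at 8.0 RPKM in the oocyte, 7.14 at 1 cell, 9.07 at 4 cells, 102 at 16 cells, 7.18 at 64 cells, 7.66 at 128 cells, 13.6 at 256 cells, 19.0 at 1000 cells and 12.6 at sphere. The 16-cell library was the only high one, at 11.2 times the 4-cell level (10.5 to 12) and 14.2 times the 64-cell level (13 to 15.5). Among 25 measured cell cycle regulators, 6 stood above both (24%, beside 11.8% of all measured genes) and 0 below. CDK1, the mitotic kinase, had 12.6, 29.7 and 5.55 RPKM at 4, 16 and 64 cells. The abundant cyclins went the other way from 4 to 16 cells without standing apart, with CCNB1 at 2568, 1190 and 1459 RPKM and CCNA1 at 2643, 1279 and 1877 RPKM. E2F8 and e2f6, cell cycle transcription factors, were at 37.2 and 28.8 RPKM at 16 cells against 5.20 and 2.63 at 4 cells and 16.3 and 11.7 at 64 cells. After median-ratio scaling 1 regulator of 25 stood above both, fbxo5, a share no larger than the 4.84% of all measured genes, and CDK1, CDK7, pkmyt1, e2f6 and E2F8 fell short of the threshold.

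Some genes of the egg list were also among the leaders, though they were low in the oocyte library itself. bmp15, a growth factor of the oocyte, was at 3.82, 43.9 and 5.26 RPKM at 4, 16 and 64 cells. PABPC1L, the embryonic poly(A)-binding protein of vertebrate oocytes, was at 18.6, 125 and 14.8 RPKM in the same libraries. The 16-cell level of bmp15 was 11.5 times (10.8 to 12.3) and 8.35 times (7.79 to 8.96) those of its neighbours, and that of PABPC1L 6.75 times (6.55 to 6.96) and 8.47 times (8.13 to 8.82). The other egg list members above both were MOS, zp3c, an egg coat protein, at 11.8, 95.6 and 28.8 RPKM, and npm2a, an egg nucleoplasmin, at 1.67, 13.9 and 4.23 RPKM. In the oocyte library bmp15 was at 5.19 RPKM, PABPC1L at 2.12, zp3c at 4.91 and npm2a at 1.21, all under their 16-cell levels. In all, 5 of 25 measured egg coat and oocyte genes stood above both (20%) and 0 below, beside 11.8% and 3.21% of all measured genes. Against the 4-cell library 10 of the 25 were higher by at least 1 and 4 lower (16%), beside 41.2% and 8.75% of all measured genes. The list's median difference was +0.37 against the 4-cell and +0.66 against the 64-cell library, beside +0.70 and +0.18 over all measured genes. cldnd, the most abundant member, was at 5518, 2220 and 2083 RPKM at 4, 16 and 64 cells. After median-ratio scaling the 5 were still above both and 1 of the list was below (4%), beside 4.84% and 7.92% of all measured genes.

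Germ plasm genes divided. buc encodes Bucky ball, the organiser of the Balbiani body and of germ plasm in zebrafish, and was at 19.1 RPKM in the oocyte, 10.1 at 1 cell, 33.2 at 4 cells, 343 at 16 cells, 134 at 64 cells, 201 at 128 cells, 234 at 256 cells, 275 at 1000 cells and 78.2 at sphere. Unlike fbxo5 and MOS it was high in every library from 16 to 1000 cells, with the 64-cell value the lowest of these 5. The tudor genes TDRD1 and tdrd5 and the piRNA pathway gene ASZ1 stood at 76.9, 30.1 and 56.3 RPKM at 16 cells. Their 4-cell levels were 7.42, 1.64 and 5.80 RPKM and their 64-cell levels 24.1, 5.94 and 18.9 RPKM. CELF1 and hook2 stood below both. CELF1, an RNA-binding protein of germ plasm in zebrafish, was at 124, 33.1 and 94.9 RPKM, and hook2 at 351, 116 and 233 RPKM. Of 21 measured germ plasm and piRNA genes, 4 stood above both (19.0%) and 2 below (9.52%), beside 11.8% and 3.21% of all measured genes. The counts were the same after median-ratio scaling, beside 4.84% and 7.92% of all measured genes. DDX4 (vasa), with 57.5, 64.8 and 91.5 RPKM, and tdrd7a, with 61.0, 70.8 and 64.6 RPKM, did not stand apart.

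**Figure D3:**
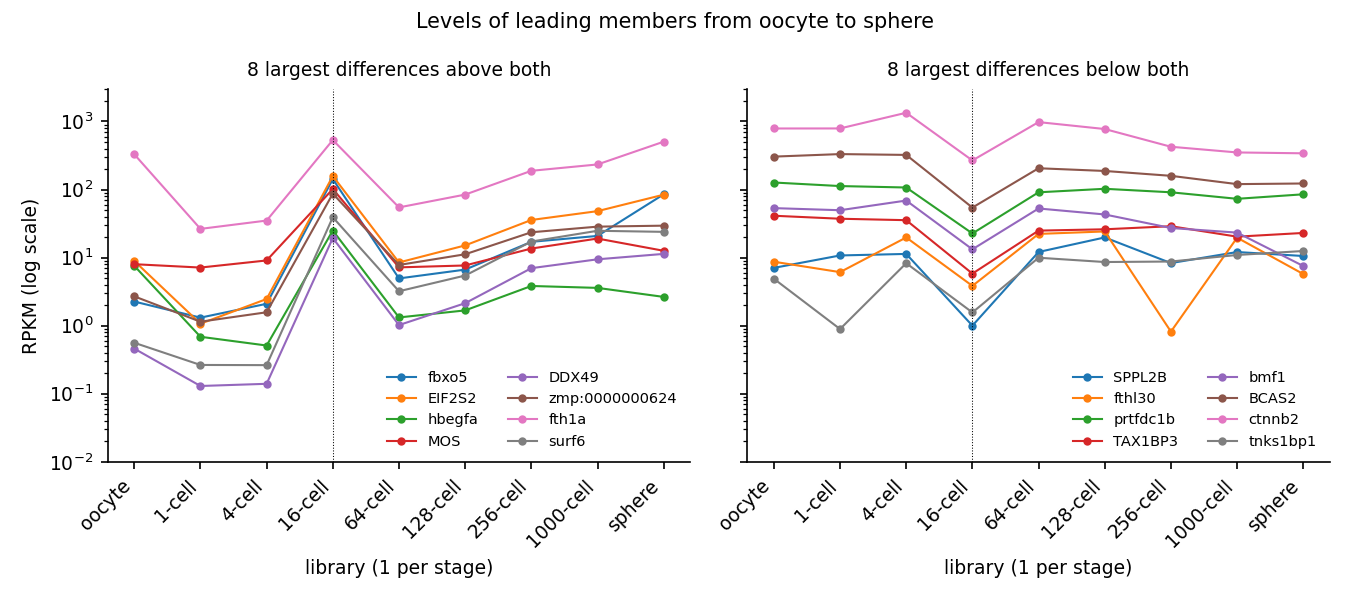
RPKM on a log axis from oocyte to sphere, 1 library per stage, for the 8 named genes with the largest differences above both neighbours (left) and below both (right). The dotted line marks the 16-cell library, where fbxo5 is at 142 RPKM between 2.1 and 4.94, and ctnnb2 is at 267 RPKM between 1343 and 979.

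EIF2S2 came next in size of difference, and the nucleolus list held the most members above both. EIF2S2, the beta subunit of the factor that brings initiator tRNA to the ribosome, was at 198 RPKM in sperm, 8.92 in the oocyte, 1.07 at 1 cell, 2.46 at 4 cells, 158 at 16 cells, 8.48 at 64 cells, 15.1 at 128 cells, 35.7 at 256 cells, 48.1 at 1000 cells and 84.0 at sphere. It was high in sperm and at 16 cells, and each library after 64 cells, up to sphere, was higher than the one before. The 16-cell level was 64.1 times the 4-cell level (57.8 to 71.4) and 18.6 times the 64-cell level (17.3 to 20.02). Of 32 measured translation factors, 6 stood above both (18.8%, beside 11.8% of all measured genes) and 0 below (beside 3.21%). The list's median difference from the 4-cell library was +0.44 as deposited and -0.58 after median-ratio scaling. That scaling left 4 above (12.5%) and put 2 below (6.25%), beside 4.84% and 7.92% of all measured genes. eif5b, a subunit-joining factor, was at 4.15, 42.2 and 14.0 RPKM at 4, 16 and 64 cells, and EIF4E2, a cap-binding protein, at 0.409, 9.52 and 2.13 RPKM. Members such as eef1a1l1, the elongation factor, at 999.9, 835 and 734 RPKM, were close to level.

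Of 60 measured nucleolus and ribosome biogenesis genes, 18 stood above both and 0 below, beside 11.8% and 3.21% of all measured genes, and 45 were higher than in the 4-cell library. The list's median difference was +1.90 against the 4-cell and +0.52 against the 64-cell library, beside +0.70 and +0.18 over all measured genes. After median-ratio scaling it was +0.93 and +0.28, with 9 above both (15%) and 0 below, beside 4.84% and 7.92% of all measured genes. DDX49, a DEAD-box RNA helicase, was at 0.46 RPKM in the oocyte, 0.13 at 1 cell, 0.14 at 4 cells, 19.4 at 16 cells, 1.02 at 64 cells, 2.14 at 128 cells, 6.99 at 256 cells, 9.43 at 1000 cells and 11.3 at sphere. surf6, a nucleolar protein of ribosome assembly, was at 0.56, 0.264, 0.263, 39.1, 3.20, 5.45, 17.2, 24.8 and 23.9 RPKM in the same order. Both were nearly undetected from the oocyte to 4 cells, highest at 16 cells, and higher again by 1000 cells than at 64 cells. In sperm DDX49 was at 8.26 and surf6 at 13.2 RPKM. The 16-cell level of surf6 was 149 times the 4-cell level (111 to 204) and 12.2 times the 64-cell level (10.9 to 13.7). For DDX49 the ratios were 139 (94.5 to 213) and 19.0 (15.8 to 23.1). WDR43, a factor of the small subunit processome, was at 2.15, 45.9 and 12.7 RPKM at 4, 16 and 64 cells. Outside this list, polr1g, a subunit of RNA polymerase I, was at 1.00, 39.0 and 3.31 RPKM.

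Genes for the proteins of the ribosome itself did not stand apart, but were low against the 4-cell library. Of 68 measured cytosolic ribosomal protein genes, 0 stood above both and 0 below, as deposited and after median-ratio scaling. Over all measured genes 11.8% stood above and 3.21% below as deposited, and 4.84% and 7.92% after scaling. Against the 4-cell library 10 of the 68 were lower by at least 1 (14.7%, beside 8.75% of all measured genes) and 1 higher. Their median difference was -0.47 against the 4-cell and +0.17 against the 64-cell library, and -1.50 and -0.08 after scaling, beside -0.24 and -0.06 over all measured genes. The 13 mitochondrially encoded genes matched by symbol likewise had 0 apart, with medians of -0.76 and +0.28 as deposited and -1.79 and +0.04 after scaling. Genes without a symbol could not be matched. The ribosomal protein and mitochondrially encoded lists hold abundant genes, with median levels at 4 cells of 192 and 1148 RPKM. Over all measured genes that median was 10.7 RPKM. In the highest of the 4 groups by mean level described later, 2.98% stood above both and 8.10% below. That group had median differences of -0.26 (4-cell) and -0.18 (64-cell) as deposited. Whether these lists differ from other genes of like level was not tested. Nuclear genes of oxidative phosphorylation had 10 of 54 above both (18.5%, beside 11.8% of all measured genes) and 0 below (beside 3.21%). After median-ratio scaling 3 were above (5.56%, beside 4.84% of all measured genes) and 0 below (beside 7.92%). ATP5F1B, the catalytic beta subunit of ATP synthase, was at 19.7, 131 and 53.7 RPKM at 4, 16 and 64 cells, and cox6c, a cytochrome oxidase subunit, at 6.98, 39.3 and 15.1 RPKM.

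Chaperone and stress genes had 9 of 31 measured members above both (29.0%, beside 11.8% of all measured genes) and 0 below (beside 3.21%). After median-ratio scaling 5 were above (16.1%) and 1 below (3.23%), beside 4.84% and 7.92% of all measured genes. XBP1, a transcription factor of the unfolded protein response, was at 9.34 RPKM in the oocyte, 0.593 at 1 cell, 1.82 at 4 cells, 51.3 at 16 cells, 6.72 at 64 cells, 11.0 at 128 cells, 28.7 at 256 cells, 35.7 at 1000 cells and 57.2 at sphere. It was lowest at 1 cell, and only the sphere value exceeded the 16-cell one among egg and embryo libraries. HSF2, a heat shock transcription factor, was at 1.36, 25 and 8.71 RPKM at 4, 16 and 64 cells, and CCT7, a subunit of the cytosolic chaperonin, at 18.9, 123 and 46.8 RPKM. HSP90AB1, the constitutive cytosolic Hsp90, was at 168, 387 and 163 RPKM, a difference that fell below the threshold after scaling. HSPA8, the constitutive Hsp70, at 826, 1360 and 688 RPKM, and dnajb1b, an Hsp40 that is heat-inducible in vertebrates, at 68.7, 43.9 and 88.0 RPKM, did not stand apart.

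In the proteasome list 7 of 37 measured genes stood above both (18.9%) and 1 below (2.70%), beside 11.8% and 3.21% of all measured genes. After median-ratio scaling there were 1 and 1, each a smaller share (2.70%) than over all measured genes (4.84% above and 7.92% below). PSMC5, an ATPase of the base, was at 1.48, 25.3 and 9.25 RPKM at 4, 16 and 64 cells. PSME3, the nuclear proteasome activator, went the other way with 313, 92.3 and 200 RPKM. Among 47 spindle and checkpoint genes 7 stood above both (14.9%) and 1 below (2.13%), shares near the 11.8% and 3.21% of all measured genes. After scaling 1 was above (2.13%) and 4 below (8.51%), beside 4.84% and 7.92% of all measured genes. The gene below as deposited was espl1, the separase that cuts cohesin, at 252, 71.2 and 177 RPKM. aurka, a mitotic kinase, was at 486 RPKM in the oocyte, 309 at 1 cell, 84.8 at 4 cells, 181 at 16 cells and 38.4 at 64 cells, and kif2c, a microtubule depolymerase, at 87.5, 64.9, 25.8, 79.8 and 12.8 RPKM in the same order. In both genes the 16-cell level lay between the oocyte and the 4-cell levels, and both lost the call after scaling. BUB3, a checkpoint protein, was lower at each later stage instead, with 378, 65.9 and 8.74 RPKM.

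Other leading genes above both came from outside the lists described so far. hbegfa, a ligand of the EGF receptor, was at 0.51, 25 and 1.32 RPKM at 4, 16 and 64 cells, and fth1a, the ferritin heavy chain that stores iron, at 35.0, 534 and 54.6 RPKM. RAD17, which loads the checkpoint clamp onto DNA, was at 0.756, 19.2 and 2.38 RPKM, and lrrc59, a ribosome-associated protein of the endoplasmic reticulum, at 0.422, 42.3 and 3.79 RPKM. Beside 11.8% above and 3.21% below over all measured genes, housekeeping references had 3 of 15 measured members above both (20%) and 1 below (6.67%). Beside 4.84% and 7.92% after median-ratio scaling, these references had 1 above (6.67%) and 2 below (13.3%). The most abundant named gene above both was among these, actb2, a cytoplasmic actin, at 148, 706 and 256 RPKM, and its near copy actb1 was at 47.4, 107 and 43.5 RPKM, which was no longer apart after median-ratio scaling. How reads shared by such near-identical copies were counted is not given in the sources used here, so values of actins, tubulins, ferritins and H3.3 genes are uncertain.

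The largest difference of all was in a gene with no symbol in the name table, ENSDARG00000080337, whose smaller difference was 5.56 on the log2(RPKM + 1) scale. Having no symbol, this gene could not be placed on any list, that of the mitochondrially encoded genes included. What RNA it encodes was not identified. It was at 1529 RPKM in sperm, 576 in the oocyte, 1065 at 1 cell, 265 at 4 cells, 12970 at 16 cells, 275 at 64 cells, 169 at 128 cells, 323 at 256 cells, 245 at 1000 cells and 289 at sphere. In the 16-cell library it took 2.87% of all RPKM, against 0.0549% at 4 cells and 0.0617% at 64 cells. The 5.8S ribosomal RNA gene was at 128 RPKM at 4 cells, 1163 at 16 cells, 924 at 64 cells and 65.5 at 128 cells, and so was high in both the 16-cell and the 64-cell library. With the values rescaled to an equal sum without the 10 most abundant genes of each of the 3 libraries, 1132 genes stood above both and 265 below. Whether the differences of these 2 genes share a source with those of the other genes was not tested.

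Of the maternal axis genes, ctnnb2 stood below both. ctnnb2, a beta-catenin gene whose maternal product sets the dorsal axis in zebrafish, was at 789 RPKM in the oocyte, 790 at 1 cell, 1343 at 4 cells, 267 at 16 cells, 979 at 64 cells, 774 at 128 cells, 425 at 256 cells, 351 at 1000 cells and 341 at sphere. The 16-cell value was the lowest of all egg and embryo libraries, though not far under the last 2. The 4-cell level was 5.02 times the 16-cell level (4.97 to 5.07) and the 64-cell level 3.66 times it (3.62 to 3.70). Its paralogue CTNNB1 was at 227, 198 and 305 RPKM and did not stand apart. Of 15 measured maternal axis and activation genes, 1 stood above both (sybu, at 4.82, 15.3 and 5.37 RPKM) and 1 below. Each is a share of 6.67%, beside 11.8% above and 3.21% below over all measured genes. After median-ratio scaling there were 0 above and 3 below (20%), beside 4.84% and 7.92% of all measured genes. nanog, an activator of the zygotic genome, was at 1456, 748 and 1175 RPKM, short of the threshold.

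SPPL2B, an intramembrane protease, had the largest difference below both. It was at 7.06 RPKM in the oocyte, 10.7 at 1 cell, 11.3 at 4 cells, 0.999 at 16 cells, 12.1 at 64 cells, 19.8 at 128 cells, 8.30 at 256 cells, 12.1 at 1000 cells and 10.6 at sphere. The 16-cell library was the single low one, with a 4-cell level 11.3 times as high (9.83 to 13.1) and a 64-cell level 12.1 times as high (10.5 to 14.0). fthl30, a ferritin-like gene, was low at 16 cells (3.84 RPKM) and lower still at 256 cells (0.817 RPKM), with 19.8, 22.3, 24.2 and 19.6 RPKM at 4, 64, 128 and 1000 cells. Further leaders were prtfdc1b at 107, 22.6 and 91.0 RPKM, and bmf1, a pro-apoptotic relative of the Bcl-2 family, at 68.9, 13.2 and 52.7 RPKM.

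The abundant genes below both included several that encode RNA-binding or chromatin proteins, which is no tested theme. khdrbs1a, an RNA-binding protein also called Sam68, was at 2037, 531 and 1259 RPKM at 4, 16 and 64 cells, and h3f3d, a gene of the replacement histone H3.3, at 1883, 393 and 1142 RPKM. RCC1, the exchange factor of Ran on chromatin, was at 1248, 351 and 761 RPKM, sumo3b, a SUMO modifier, at 708, 144 and 452 RPKM, and HDAC1, a histone deacetylase, at 543, 141 and 361 RPKM. At 1 cell these 5 genes had been at 1926, 1501, 1327, 951 and 621 RPKM, and none was back at its 4-cell level in a later library. BCAS2, a component of the spliceosome, was at 323, 54.3 and 205 RPKM, TARBP2, a partner of Dicer, at 293, 54.0 and 183 RPKM, and LARP7, which binds the 7SK RNA, at 199, 36.7 and 126 RPKM. The 4-cell levels of BCAS2, TARBP2 and LARP7 were 5.94 times (5.76 to 6.13), 5.42 times (5.30 to 5.55) and 5.42 times (5.27 to 5.58) the 16-cell ones.

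As deposited, cohesin and condensin genes were the list with the largest share below both. Of 17 measured members, 4 stood below (23.5%, against 3.21% of all measured genes) and 1 above. The list's counts were the same after median-ratio scaling, beside 7.92% below and 4.84% above over all measured genes. After that scaling the histone list had a larger share below both, with 3 of 11 (27.3%). Under that scaling genes below both stay there nearly by construction. rad21a, the cohesin subunit cut at anaphase, was at 196, 43.4 and 139 RPKM at 4, 16 and 64 cells, SMC3, a cohesin core subunit, at 211, 69.4 and 144 RPKM, and SMC2, a condensin core subunit, at 286, 74.4 and 184 RPKM. The symbol of the remaining gene below both is shared with another gene. esco1, which acetylates cohesin, went the other way at 4.76, 30.3 and 10.8 RPKM. CTCF, the insulator protein that meets cohesin at loop ends, was higher at each stage, at 10.7, 38.4 and 75.5 RPKM, and did not stand apart.

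**Figure D4:**
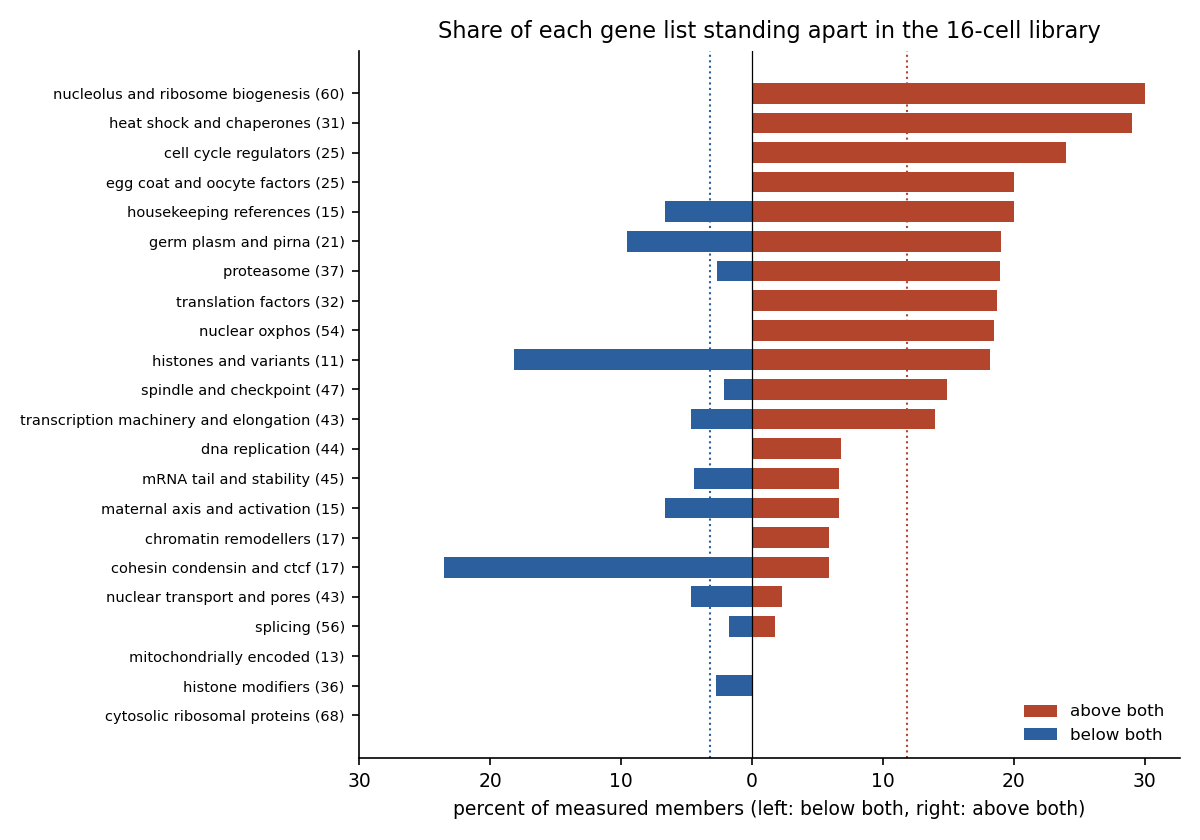
Percent of the measured members of each gene list shown (number in brackets) that stood below both neighbours (blue, to the left) or above both (red, to the right) in the 16-cell library. Lists with few measured members, such as the follicle markers (1 of 3 above both), are not shown. Dotted lines mark all measured genes, 3.21% and 11.8%. Among the lists shown, nucleolar genes (18 of 60) and chaperones (9 of 31) have the largest shares above, and cohesin and condensin genes (23.5%) the largest below. Ribosomal protein genes and the mitochondrially encoded genes matched by symbol have none.

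In the remaining lists the counts as deposited are to be read against the 11.8% above and 3.21% below of all measured genes. Counts after median-ratio scaling are to be read against 4.84% above and 7.92% below. The histone list, which also holds histone chaperones and the histone mRNA-binding protein gene slbp2, had 2 of 11 above both (18.2%, slbp2 and nap1l4a). It had 2 below (18.2%, h3f3d and ANP32E), and 0 above and 3 below (27.3%) after median-ratio scaling. Genes of mRNA tails and stability had 3 of 45 above (6.67%, CNOT10, ZFP36L2 and CPSF3) and 2 below (KHSRP and AGO1). General transcription had 6 of 43 above (14.0%, near the share of all genes), among them ERCC2, a helicase of TFIIH, at 1.21, 24.6 and 7.81 RPKM, and 2 below (4.65%, LARP7 and GTF2A1), and 2 and 4 after scaling. DNA replication had 3 of 44 above (ORC5, GINS3 and CHAF1B) and 0 below, nuclear transport 1 of 43 above and 2 below, and splicing 1 of 56 above (srrm2, at 5.33, 86.2 and 22.5 RPKM) and 1 below (SRSF9). After median-ratio scaling nuclear transport had 0 above and 7 below (16.3%), and splicing 1 above and 7 below (12.5%). Chromatin remodellers had 1 of 17 above, histone modifiers 1 of 36 below and DNA methylation genes 0 of 9 apart.

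The members' levels were followed from the oocyte to sphere, where the 4-, 16- and 64-cell values are those that chose them. In sperm the median level was 14.2 RPKM for genes above both and 12.5 for those below both, beside 12.3 over all measured genes. The median level of the 1080 genes above both was 2.79 RPKM in the oocyte, 1.38 at 1 cell, 2.62 at 4 cells, 18.8 at 16 cells, 6.19 at 64 cells, 8.02 at 128 cells, 11.8 at 256 cells, 14.9 at 1000 cells and 14.6 at sphere. That of the 293 genes below both was 82.9, 82.6, 87.4, 26.0, 71.7, 67.4, 52.7, 45.9 and 41.3 RPKM in the same order. In the libraries that the rule did not use, the median of the genes above both was higher at each step from 128 to 1000 cells, and that of the genes below both lower at each step from 128 cells to sphere.

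**Figure D5:**
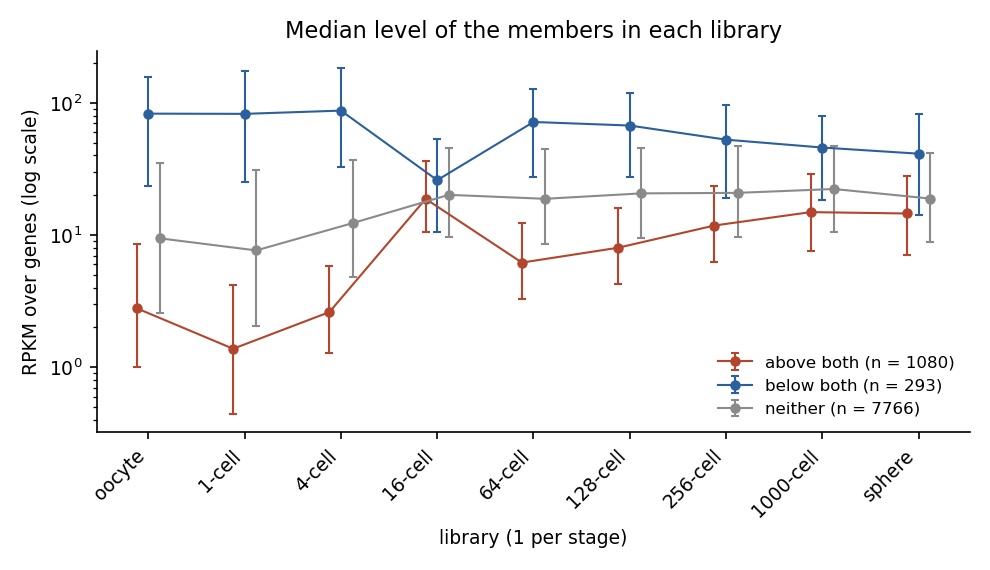
Median RPKM on a log axis from oocyte to sphere for the genes above both neighbours (red), below both (blue) and neither (grey), with bars from the lower to the upper quartile over genes. The red median is 18.8 RPKM at 16 cells, then 6.19 at 64 cells and 14.9 at 1000 cells. The blue median is 26.0, 71.7 and 45.9 RPKM at those stages, and the 4-, 16- and 64-cell values chose the genes.

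From the 128-cell to the 1000-cell library, neither of which entered the rule, 239 of the 1080 genes above both were higher by at least 1 on the log2(RPKM + 1) scale (22.1%) and 0 lower, beside 3.50% and 0.711% of all measured genes. Their median difference was +0.70, beside +0.09 over all measured genes. The 293 genes below both had 0 higher and 19 lower (6.48%), with a median of -0.50. On the log2 scale 98.5% of the genes above both were higher at 1000 cells by any amount, against 2.73% of those below both. Over all measured genes the share was 58.5%. After median-ratio scaling of the libraries of 1 to 1000 cells, the share of genes above both that were higher by 1 or more was 11.2%, beside 1.66% of all measured genes.

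Between the oocyte and the 1-cell library, 245 of the genes above both were lower at 1 cell by at least 1 (22.7%) and 12 higher (1.11%). Over all measured genes 10.1% were lower and 2.51% higher. Of the genes below both 9 were lower (3.07%) and 13 higher (4.44%).

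Over all measured genes as deposited, the 16-cell library was closest to the 256-cell and 1000-cell libraries rather than to its neighbours in time. Shares were taken of genes that differed from the 16-cell value by less than 1 on the log2(RPKM + 1) scale. They were 50.1% at 4 cells, 81.1% at 64 cells, 84.8% at 128 cells, 89.3% at 256 cells, 88.5% at 1000 cells and 77.5% at sphere. The median absolute difference was 1.00 from the 4-cell, 0.51 from the 64-cell, 0.39 from the 256-cell and 0.40 from the 1000-cell library on the log2(RPKM + 1) scale. Median-ratio scaling moved the median difference by -0.95 against the 4-cell and by -0.23 against the 64-cell library. The ranking of libraries is given here only without that scaling. Among the genes above both, 47.8% were within 1 of the 16-cell value on that log2 scale at 128 cells, 79.1% at 256 cells and 86.8% at 1000 cells. Among those below both the shares were 27.3%, 62.8% and 78.2%. These shares of members rest on the 16-cell value that chose them. The labels give no sequencing date or batch, so a difference between libraries and one between stages cannot be told apart.

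Members differed from other genes in level and length. When the measured genes were cut into 4 groups of like size by mean level over the 10 libraries, 21.1% of the lowest group stood above both and 1.09% below, against 2.98% and 8.10% of the highest group. The mean level includes the 16-cell value and so is not independent of the rule. Of the 1080 genes above both, 429 entered the measured set through the 16-cell library alone. The contrast by level is therefore partly set by the rule and its minimum of 5 RPKM. Median gene length, as recovered from the values, was 1915 bases above both, 1955 below both and 2207 for the rest. In 4 groups of like size by length, from short to long, 13.4%, 14.7%, 12.1% and 7.05% stood above both and 4.11%, 2.97%, 3.55% and 2.19% below. The part of level and length in the result was not tested.

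The counting interval of the fold lay wholly past 2-fold against both neighbours for 1030 of the 1080 genes above both and 273 of the 293 below both. For the others, such as mrps18b (1.93 to 2.27 times its 64-cell level) and LTV1 (1.97 to 2.16 times), counting error alone reached inside 2-fold. A floor of 3 reads over 1 kilobase comes to 0.0263 RPKM in the 4-cell, 0.0419 in the 16-cell and 0.0416 in the 64-cell library. Of the 1080 genes, 429 reached 5 RPKM in the 16-cell library alone of the 3. The smaller of the 2 differences had a median of 1.29 above both and -1.22 below both, and 74 genes above and 6 below reached 2 in size. The added 1 RPKM makes such differences understate the change of low genes. Just inside the threshold above both lay GAREM1, at 1.18, 10.8 and 4.91 RPKM, and mrps18b, at 2.01, 22.2 and 10.6 RPKM, and just outside ZPR1, at 2.61, 16.2 and 7.63 RPKM. Below both, hook2, SSB and mia3 were just inside, and NUCKS1 (408, 137 and 276 RPKM), sulf2a and btg3 just outside.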

How the data were processed

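Total RNA was isolated with TRIzol, made into TruSeq RNA v2 libraries and read on a HiSeq2000, per the labels' protocols. The deposited values are RPKM in 1 table of 10 columns, 1 per library, made by the authors and not log-transformed. TopHat2 2.0.9 and the genome build Zv9 are listed per the submitters' processing notes. How reads were counted, on which annotation, with or without strand, and what became of reads with several placements is not given in the sources used here.

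Whole reads, gene lengths and the reads scaled to were solved from the ratios of a gene's values between libraries, for 26493 of 26495 genes above 0 in at least 2 libraries, within a tolerance of 0.02 reads, and the procedure was tested on simulated data. A difference is that of log2(RPKM + 1). With 1 library per stage no p-value was computed, and no count model was fitted to the recovered reads. The 95% intervals of ratios come from the exact Clopper-Pearson method applied to reads.

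Symbols come from a name table that names 20901 of the 32574 IDs, and 3270 that share a symbol are not named singly. Members and the 31 gene lists, matched by symbol, were chosen with earlier results of these data known. Genes named are the 20 largest differences above and 15 below both, the 10 most abundant of each, list members apart and those 3 inside and 3 outside the threshold. Of these, 1 gene is not reported here. List members not apart are named for contrast and were chosen after their values were seen. Python 3.11.15, numpy 2.4.6, pandas 2.3.3 and scipy 1.17.1 were used. Alternatives varied the pseudocount, the RPKM minimum, the threshold, the scaling, the genes kept and the neighbouring stages.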

Additional observations from a re-analysis of the deposited data

How the results depend on the processing

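No paired analysis was possible because each stage has 1 library, and for the same reason no replicate could be left out. As deposited 1080 genes stood above both neighbours and 293 below. With a pseudocount of 5 those above were 490, with a threshold of 2 on the log2 scale 74 stood above and 6 below, with median-ratio scaling 442 and 735, and with the 128-cell in place of the 64-cell library 599 stood above. Against the 4-cell library the 3764 higher became 2493 (pseudocount 5), 1316 (threshold 2) and 1403 (median ratio), and the 800 lower became 74 (threshold 2) and 2723 (median ratio). Against the 64-cell library the 1310 higher became 641, 114 and 725 and the 415 lower 250, 10 and 825 under the pseudocount of 5, the threshold of 2 and the median ratio. Median-ratio scaling gave 24 genes below both for the 4-cell library, 5 above and 1 below for the 64-cell library. The share of genes above both that were higher at 1000 than at 128 cells became 7.5% (pseudocount 5) and 11.2% (median ratio), and that of all measured genes 1.14% and 1.66%. A stricter threshold and a larger pseudocount lower such counts by construction. The cause of the median-ratio differences was not tested.

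Counts stayed within 1.5 times of those deposited under a pseudocount of 0.1 (1296 above, 336 below), a minimum of 10 RPKM (833, 278) and a minimum of 1 RPKM (1240, 300). They also did with genes with a symbol (896, 202), genes of at least 500 bases (1057, 271) and the 1-cell in place of the 4-cell library (1012, 231). The same held for an equal sum without the mitochondrially encoded genes matched by symbol (1042, 308). Alternatives added after seeing the data gave 1030 and 273 where the fold interval lay wholly past 2-fold, and 1132 and 265 without the 10 most abundant genes of each library. A change of pseudocount cannot alter the direction of a difference. All 113 named genes above both and all 37 below kept their direction after median-ratio scaling, which a shift of that size could hardly alter. Past the threshold were 70 of the 113 and 29 of the 37 with a pseudocount of 5, and 56 and 37 after scaling. That scaling keeps genes below both apart nearly by construction. Counting error reached inside 2-fold for the other genes apart, and every comparison lacks replicate libraries.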

Other observations

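Many genes moved between the 4-cell and the 16-cell library and stayed there at 64 cells, and a few of the largest such differences are given here, chosen after their values were seen. CDK9, the kinase that releases paused RNA polymerase II, was at 1.53 RPKM in the oocyte, 0.535 at 1 cell, 7.01 at 4 cells, 88.0 at 16 cells, 61.6 at 64 cells, 83.8 at 128 cells and 113 at 1000 cells. The kinases of ribosome maturation RIOK1 and RIOK3 were at 1.52 and 1.64 RPKM at 4 cells, 21.5 and 21.5 at 16 cells and 16.0 and 14.0 at 64 cells. lin37, a subunit of the DREAM complex of cell cycle genes, was at 1.79, 33.3 and 18.9 RPKM at 4, 16 and 64 cells. Unlike fbxo5 or MOS, these genes had no dip of 1 or more on the log2(RPKM + 1) scale at 64 cells, which is the condition that chose them.

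In the other direction, sesn2, a stress-responsive sestrin, was at 161, 28.0 and 30.2 RPKM at 4, 16 and 64 cells and at 5.18 RPKM by 1000 cells. DAZL, a germ cell RNA-binding protein, was at 279 RPKM at 1 cell, 162 at 4 cells, 40.1 at 16 cells, 64.5 at 64 cells and 9.39 at sphere. The centrosome genes NIN and pcnt were at 30.8 and 71.8 RPKM at 4 cells, 6.71 and 18.2 at 16 cells and 3.54 and 27.7 at 64 cells. IDH3A, a subunit of a citric acid cycle enzyme, was at 80.3 RPKM at 1 cell, 4.00 at 4 cells, 20.1 at 16 cells and 5.32 at 64 cells, so that its levels alternated over these libraries.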
